A study of Mus musculus with 6 samples.

Results

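Collagen chain genes encode the polypeptides that assemble into the triple helices of the extracellular matrix. The members are all genes whose array annotation gives exactly 1 symbol of the form Col, number, a, number, with no filter on level or on difference. There were 36 of them among 12393 genes, on 58 probe sets, and each was read from its brightest probe set by the mean of the 6 arrays. They comprised 6 fibrillar genes, 8 of basement membranes, 7 of cartilage type and 15 others. Another 9 collagen genes looked for had no probe set that names them alone and were not analysed here.

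The study compared chromosomally unstable with stable mouse embryo fibroblasts (MEFs), which are primary cells grown out of embryos. BubR1 is a protein of the spindle checkpoint and CDC20 the activator of the anaphase-promoting complex that this checkpoint restrains. Of the 3 unstable lines, 2 had the genotype BubR1 H/H, a hypomorphic allele, with wild-type CDC20, and 1 had the genotype CDC20 AAA/AAA, an allele also classed as hypomorphic in the labels, with wild-type BubR1. The 3 stable lines were 2 BubR1 +/+ lines and 1 CDC20 +/+ line, wild type for both genes. In the titles, 1 unstable and 1 stable line share each of the numbers 9515, 9938 and 10074, and such lines are called a pair. The BubR1 lines form pairs 9515 and 9938, the CDC20 lines pair 10074. All lines were grown in the same medium for the same number of passages, under the same treatment conditions, and each was measured on 1 array. Whether each line was grown from its own embryo is not in the labels. The p-values therefore describe the spread among these 6 lines, and the CDC20 genotypes rest on 1 line each. Pair and locus cannot be told apart for pair 10074.

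Collagen chains are made in the endoplasmic reticulum, where prolines and lysines are hydroxylated, and chains fold into trimers before secretion. Fibrillar collagens form the cable-like fibres that fibroblasts lay down, type IV collagen forms the sheet-like network of basement membranes, and types II, IX, X and XI are known from cartilage, although type XI chains also occur in the fibrils of other tissues. Other collagens decorate fibrils, anchor epithelia or form beaded filaments, and a few span the cell membrane.

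Values are GCRMA log2 levels as deposited, on which a difference of 1 is a 2-fold change. Brightness depends on the probes, so levels are compared between lines for 1 gene and not between genes. Array medians lay between 6.16 and 6.20. Bub1b, the gene of BubR1, lay at 6.15 and 6.43 in the BubR1 H/H lines and at 7.81 and 8.51 in their stable counterparts. It was also lower in the CDC20 AAA/AAA line (7.00) than in the CDC20 +/+ line (7.61). Both lines of pair 9938 had a female pattern (Eif2s3y at 2.07 and 2.20) and the other 4 lines a male one (11.25 to 11.71), so sex differs between pairs but not within them. The 9 fibroblast markers measured were above the log2 level of 4 on all 6 arrays, and their summed level ranged from 14.90 to 15.19. Of markers of other cell types, 7 of 9 endothelial, 5 of 9 epithelial and 5 of 8 skeletal muscle genes were below 4 on every array, as were 3 of 4 Schwann cell and 4 of 6 osteoblast genes. The 9 smooth muscle and pericyte markers, which fibroblasts in culture also express, summed to 14.37 to 14.76, and the 4 mesothelial markers to 6.52 to 8.84. The 12 macrophage and leukocyte markers summed to 11.96 to 14.31, and none of them was below 4 on every array.

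Of the 36 collagen genes, 22 lay at 4 or above on all 6 arrays and 13 were below 4 on all 6. The remaining gene, Col2a1, was above 4 on 3 arrays. A gene entered the tests if it reached 4 on at least 3 arrays, which kept 23 collagen genes among 8382 genes in all. The 13 that stayed below 4 were Col4a3, Col4a4, Col9a1, Col9a2, Col9a3, Col11a2, Col13a1, Col17a1, Col19a1, Col20a1, Col22a1, Col25a1 and Col26a1. These include the type IV chains best known from the kidney glomerulus, all 3 type IX chains measured and all 3 transmembrane collagens measured. Their values ran from 1.70 in Col4a3 to 3.34 in Col20a1, on a scale that spans 0.922 to 14.39 over all probe sets, and their differences were not tested.

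**Figure D1:**
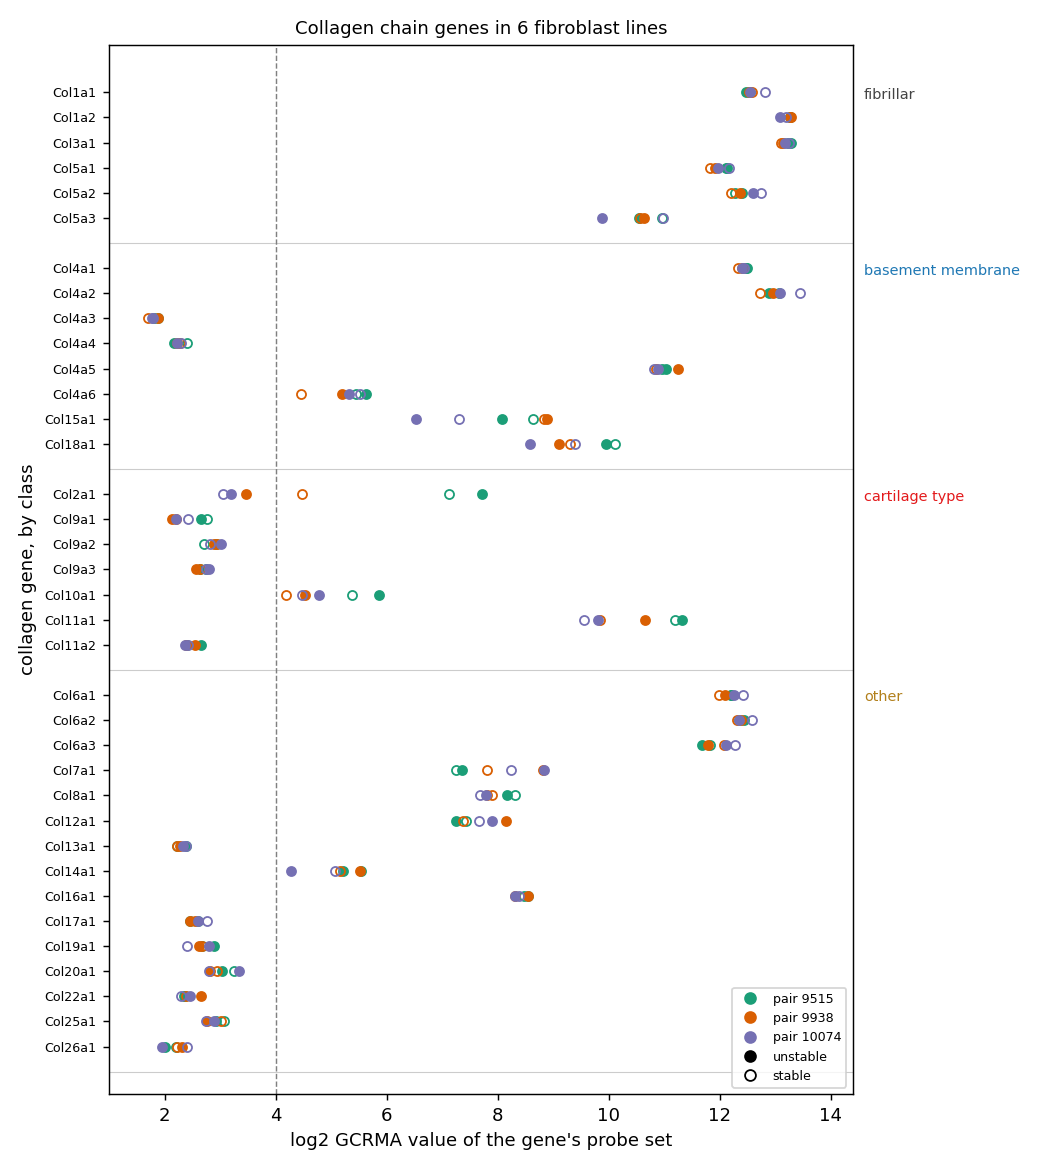
Log2 GCRMA level of each collagen gene (horizontal axis in log2 units, 1 row per gene, ordered by class) in the 6 lines, with the colour of a point giving the pair, filled for unstable and open for stable lines. All 6 fibrillar genes lie between 9.88 and 13.29, and 13 genes lie below the level of 4 in every line.

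The first comparison asked whether collagen genes differed between the unstable and the stable lines. None of the 23 did by limma at an adjusted p under 0.05, beside 0 of 8382 genes in all (0%). At an unadjusted p under 0.05 limma called 359 genes (4.28%) and 0 of the collagen genes. With pair entered as a block it called 0 genes after adjustment and 1019 before it (12.2%), of which 2 were collagen genes, Col10a1 and Col7a1. The adjusted p without the block was 0.999 for 22 of the 23 genes and 0.9995 for Col3a1. Of the 23 genes, 10 were higher and 13 lower in the mean of the unstable lines, and the absolute difference was under 0.2 for 14. The median difference was -0.031, beside -0.0087 over all genes tested, and the median absolute difference was 0.13, beside 0.11. In none of the collagen genes did all unstable lines lie above, or all below, the stable lines (3.54% and 6.41% of all genes did). The arrays hold RNA of a whole culture, in which fewer cells of a type and less RNA per cell cannot be told apart.

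Type I collagen is the main fibre protein of skin, tendon and bone, and its 2 chains were nearly level across the lines. Col1a1 measured 12.47, 12.52 and 12.54 in the unstable and 12.54, 12.59 and 12.81 in the stable lines, here and below in the order of pairs 9515, 9938 and 10074. The unstable line was the lower in each pair, by 0.064 to 0.27, and the highest unstable line was level with the lowest stable line. The group means were 12.51 ± 0.035 and 12.65 ± 0.14 (SD, n = 3 each), a difference of -0.13 (SE 0.10). The second probe set of Col1a1 gave pair differences of 0.052, -0.15 and -0.34. Col1a2 measured 13.27, 13.29 and 13.09 in the unstable and 13.27, 13.27 and 13.20 in the stable lines, a difference of -0.031 (SE 0.094). The lowest value was that of the CDC20 AAA/AAA line, the groups overlapped, and the sign turned to 0.015 when the arrays were quantile normalized again. Col3a1, the chain of type III collagen of compliant tissues such as vessel walls, measured 13.28, 13.14 and 13.17 in the unstable and 13.23, 13.12 and 13.25 in the stable lines. Its difference was 0.0010 (SE 0.091), and the groups overlapped.

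Type V collagen sits inside type I fibrils and helps to set their diameter. Col5a1 and Col5a2 lay between 11.83 and 12.75 in all lines, with differences of -0.045 (SE 0.12) and 0.047 (SE 0.17). Col5a3, a chain of more restricted expression, measured 10.56, 10.63 and 9.88 in the unstable and 10.97, 10.56 and 10.98 in the stable lines. The CDC20 AAA/AAA line was the lowest of the 6, while in pair 9938 the unstable line was the higher, so the groups overlapped. The group difference of Col5a3 was -0.48 (SE 0.24), the lowest of the 23. It was -0.24 without the CDC20 AAA/AAA line and -0.17 without pair 10074, and -0.23 by the mean of its probe sets, of which the second was below 4 on every array. Over the fibrillar class, the median differences were -0.015, 0.047 and -0.17 in pairs 9515, 9938 and 10074.

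Among basement membrane collagens, Col4a1 and Col4a2, whose chains make the common type IV trimer, differed little. Col4a1 measured 12.47, 12.40 and 12.40 in the unstable and 12.49, 12.33 and 12.44 in the stable lines, a difference of 0.0017 (SE 0.088). Col4a2 measured 12.89, 12.97 and 13.08 in the unstable and 13.07, 12.73 and 13.45 in the stable lines, a difference of -0.10 (SE 0.19). For both genes the unstable line was the higher in pair 9938 and the lower in the other pairs. In the RefSeq table of GRCm38.p6, the genes lie head to head, and their promoter windows of 250 bases before to 50 after the start share 78 bases. Col4a5, which with Col4a6 forms another type IV network, measured 11.03, 11.24 and 10.89 in the unstable and 10.96, 10.85 and 10.81 in the stable lines. Its unstable line was the higher in each pair, by 0.074, 0.39 and 0.079, although the unstable line of pair 10074 was below the stable line of pair 9515. Col4a6 measured 5.63, 5.19 and 5.33 in the unstable and 5.45, 4.46 and 5.52 in the stable lines, a difference of 0.24 (SE 0.31) with overlapping groups.

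Col15a1 and Col18a1 encode the related basement membrane collagens whose ends give the fragments restin and endostatin. Col15a1 measured 8.07, 8.88 and 6.53 in the unstable and 8.63, 8.83 and 7.30 in the stable lines, and both lines of pair 10074 were below the other 4. Col18a1 measured 9.95, 9.11 and 8.57 in the unstable and 10.11, 9.30 and 9.39 in the stable lines. Its unstable line was the lower in each pair, by 0.16, 0.19 and 0.82, but that of pair 9515 was above the stable lines of the other pairs. The differences were -0.43 (SE 0.69) for Col15a1 and -0.39 (SE 0.39) for Col18a1. The latter was -0.070 without the CDC20 AAA/AAA line and -0.76 without the unstable line of pair 9515, and the second probe set of Col18a1 gave pair differences of -0.17, 0.035 and -0.64. The class medians were -0.090, 0.16 and -0.28 in pairs 9515, 9938 and 10074.

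Of the 7 cartilage-type genes, 3 were kept. Col2a1, the main collagen of cartilage, measured 7.73, 3.47 and 3.20 in the unstable and 7.12, 4.47 and 3.05 in the stable lines. Both lines of pair 9515 were far above the others, and the gene reached 4 only in these and in the stable line of pair 9938, so it passed the filter through the lines in which it was high. Its unstable minus stable difference was -0.083 with an SE of 1.53. Col10a1, known from hypertrophic cartilage, measured 5.86, 4.53 and 4.77 in the unstable and 5.38, 4.18 and 4.47 in the stable lines. The unstable line was the higher in each pair, by 0.47, 0.36 and 0.30, yet the stable line of pair 9515 was above the unstable lines of the other pairs. The difference was 0.38 (SE 0.45), and with pair as a block its SE was 0.085 (unadjusted p = 0.00697, adjusted p = 0.278 by limma). Col11a1, whose chain nucleates fibrils in cartilage and elsewhere, measured 11.32, 10.65 and 9.80 in the unstable and 11.20, 9.84 and 9.55 in the stable lines. Its unstable line was also the higher in each pair, by 0.12, 0.82 and 0.25, with a difference of 0.39 (SE 0.55). That difference was 0.031 without the unstable line and 0.90 without the stable line of pair 9515. The second probe set of Col11a1 gave 0.46, 0.56 and 0.40 for the same pairs. The median difference of the 3 genes was 0.38, and it ranged from -0.024 to 0.90 when a line or a pair was left out.

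Type VI collagen forms the beaded filaments around cells. Col6a1 measured 12.20, 12.10 and 12.26 in the unstable and 12.20, 11.98 and 12.43 in the stable lines. Col6a2 measured 12.43, 12.38 and 12.35 in the unstable and 12.35, 12.32 and 12.59 in the stable lines. For both, the pairs differed in direction, and the differences were -0.015 (SE 0.13) and -0.033 (SE 0.10). Col6a3 measured 11.69, 11.80 and 12.11 in the unstable and 11.82, 12.08 and 12.28 in the stable lines. The unstable line was the lower in each pair, by 0.13, 0.28 and 0.17, with overlapping groups and a difference of -0.19 (SE 0.17).

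Col7a1, the anchoring fibril collagen that fastens the epidermis to the dermis, had the highest difference of the 23. It measured 7.36, 8.82 and 8.83 in the unstable and 7.25, 7.80 and 8.25 in the stable lines. The unstable line was the higher in each pair, by 0.12, 1.01 and 0.58, but that of pair 9515 was below the stable lines of the other pairs. The group difference was 0.57 (SE 0.47), and with pair as a block the unadjusted p was 0.0264 and the adjusted p 0.348 by limma. It was 0.31 without the stable and 1.06 without the unstable line of pair 9515. Col7a1 alone had an absolute difference of at least 0.5, which 5.01% of all genes had.

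Col12a1 and Col14a1 belong to the collagens that coat fibrils without forming them. Col12a1 measured 7.25, 8.14 and 7.90 in the unstable and 7.43, 7.37 and 7.66 in the stable lines, a difference of 0.28 (SE 0.24). Col14a1 measured 5.20, 5.52 and 4.27 in the unstable and 5.54, 5.16 and 5.06 in the stable lines, a difference of -0.25 (SE 0.34). Both genes were higher in the unstable line of pair 9938 and lower in that of pair 9515, and for both the groups overlapped. The remaining genes tested, the fibril-associated Col16a1 and the short-chain collagen gene Col8a1, differed by 0.067 (SE 0.11) and -0.037 (SE 0.20). Over the 8 genes of the class tested, type VI, VII and VIII chains included, the medians were -0.061, 0.17 and -0.13 in the pairs, in the same order.

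Pair by pair, the signs were uneven. The unstable line was the higher for 11 of the 23 genes in pair 9515 (50.2% of all genes) and for 18 in pair 9938 (49.5%). In the CDC20 pair it was the lower for 16 of the 23 (54.5%), among them all 6 fibrillar genes, by 0.076 to 1.09. Each of these counts compares 1 line with 1 line. The sign was shared by all 3 pairs for 7 genes, being higher in the unstable lines for Col4a5, Col10a1, Col11a1 and Col7a1 (4 of 23, beside 16.9% of all genes) and lower for Col1a1, Col6a3 and Col18a1 (3 of 23, beside 19.3%). The second probe sets of Col1a1 and Col18a1 did not keep the sign in all pairs. In pair 10074, the second probe set of the fibrillar gene Col5a1 was not lower in the unstable line, with a difference of 0.027.

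**Figure D2:**
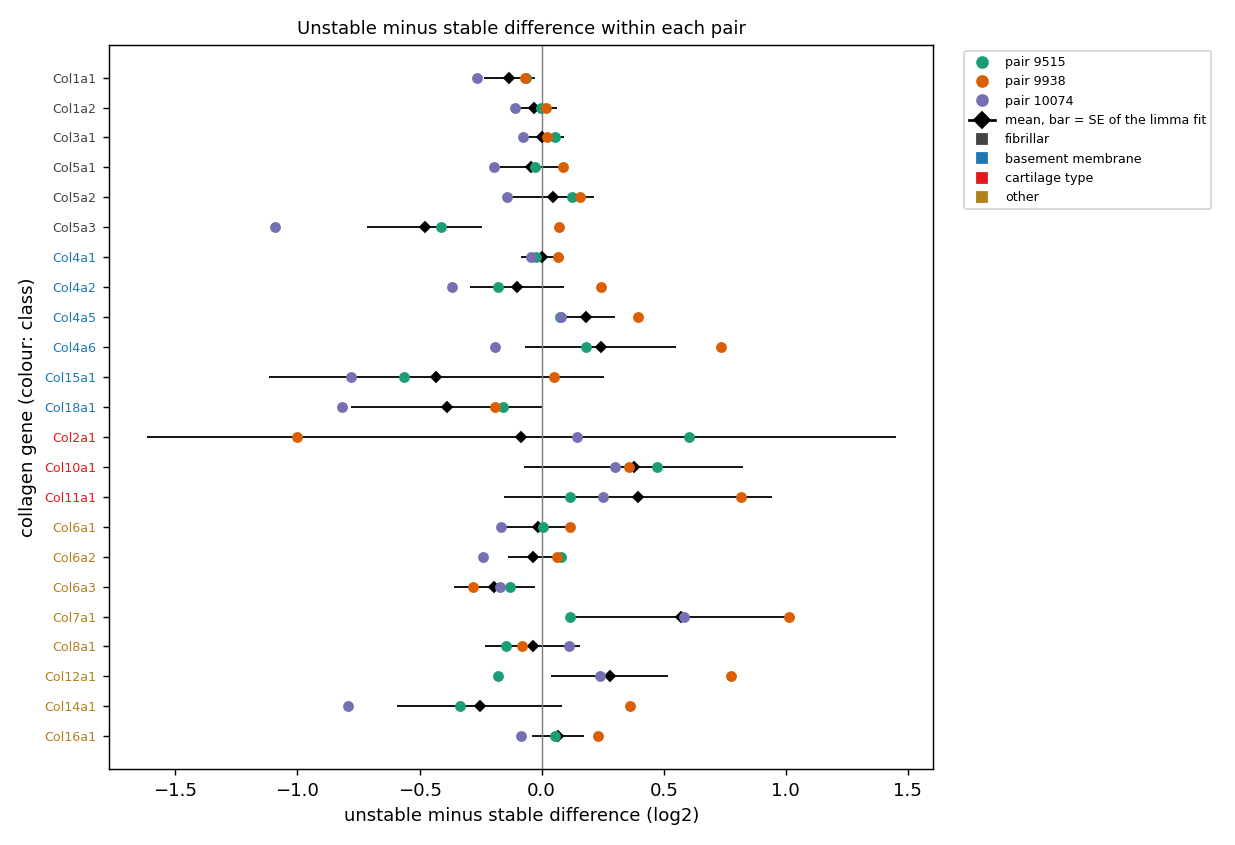
Unstable minus stable difference (horizontal axis, log2 units) of the 23 collagen genes tested, with 1 coloured point per pair and a black diamond for the mean of the pairs. The bar is the SE of the limma fit without the pair block, so it includes spread between pairs. Points of pair 10074 lie left of 0 for all 6 fibrillar genes, and Col7a1 has the highest mean, 0.57.

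A direct test asked whether the CDC20 difference departed from the mean of the BubR1 differences. It called 0 of the 23 genes and 0 of all genes by limma (0%), with and without the pair block, and each CDC20 line was assumed to vary like the BubR1 lines. At an unadjusted p under 0.05 it called 133 genes (1.59%), and of the collagen genes only Col5a3, for which the CDC20 minus BubR1 difference was -0.92 (SE 0.31) with an adjusted p of 0.9995.

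The next comparison asked how far the pairs differed from one another. The range of the 3 pair means had a median of 0.42 over the 23 genes and 0.27 over all genes tested. It exceeded the largest difference within a pair for 15 of the 23 (49.2% of all genes), and it was at least 1 for 6 genes, Col2a1, Col15a1, Col11a1, Col10a1, Col7a1 and Col18a1 (7.75%). By class, the median range was 0.21 for fibrillar, 0.57 for basement membrane and 0.44 for the other genes, and Col10a1 and Col11a1 had ranges of 1.26 and 1.58. The range of Col2a1, 4.30, is that of a gene that passed the filter through the lines in which it was high. For 14 genes the range was under 0.5, and for Col1a1, Col1a2, Col3a1 and Col4a1 it was 0.17, 0.13, 0.13 and 0.11 by the probe sets used. Other probe sets of a gene did not always give the same picture. The second probe set of Col3a1 had pair means of 12.74, 12.72 and 12.20 and that of Col4a1 12.27, 11.96 and 12.35. Of 11 collagen genes with more than 1 probe set of mean at least 4, only 5 had the same highest pair in them.

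**Figure D3:**
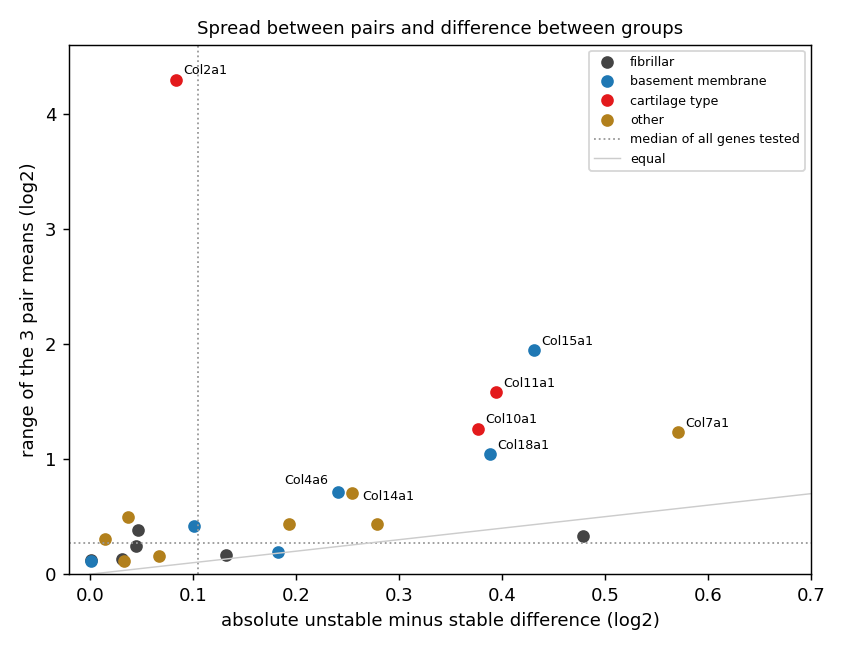
Range of the 3 pair means against the absolute unstable minus stable difference for the 23 collagen genes tested, both in log2 units, coloured by class, with dotted lines at the medians of all genes tested (0.27 and 0.11). The grey line marks equal values, and Col2a1 stands highest with a range of 4.30.

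A limma F-test of the pairs, with stability in the model, called 4 of the 23 genes at an adjusted p under 0.05, beside 497 of all genes (5.93%). They were Col10a1 (adjusted p = 0.0171), Col15a1 (0.0279), Col11a1 (0.0348) and Col2a1. Since Col2a1 entered the test only through lines in which it was high, its levels are given as a description and its call is not used as support. At an unadjusted p under 0.05 it called 9 of the 23 (26.2% of all genes). Pair means of Col2a1 were 7.42, 3.97 and 3.13 for pairs 9515, 9938 and 10074. Those of Col10a1 were 5.62, 4.36 and 4.62, and those of Col11a1 were 11.26, 10.25 and 9.68. Col10a1 and Col11a1 were highest in pair 9515, as was Col2a1 by its levels. Of all genes tested, 2.58% were called and highest there. Col15a1 differed in pattern, with 8.35, 8.86 and 6.92, being lowest in the CDC20 pair. Col7a1 and Col18a1 did not pass, with adjusted p-values of 0.0697 and 0.0748. Col7a1 was lowest in pair 9515, at 7.30 beside 8.31 and 8.54, and Col18a1 was highest there, at 10.03 beside 9.20 and 8.98. The second probe set of Col11a1 had the same order, at 10.27, 9.24 and 8.72, while Col10a1, Col15a1 and Col2a1 each had only 1 probe set.

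**Figure D4:**
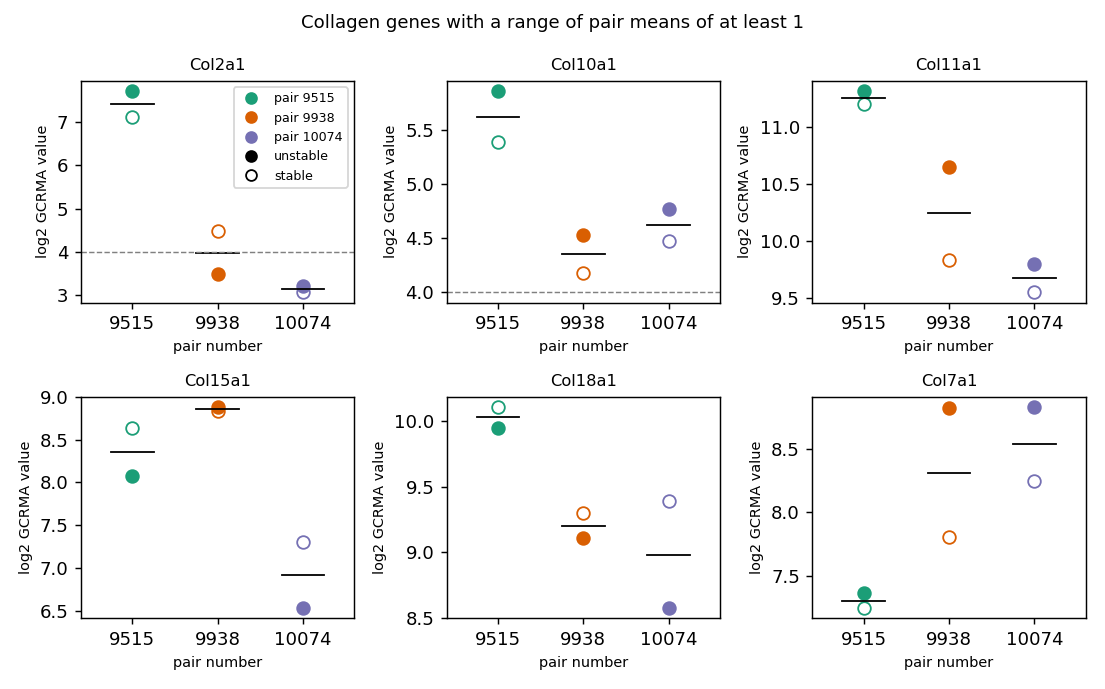
Log2 level of the collagen genes that differ most between pairs, 1 panel per gene, with the pairs on the horizontal axis, filled points for the unstable line, open points for the stable line and a bar for the pair mean. Both lines of pair 9515 lie above the other 4 for Col2a1, Col10a1 and Col11a1, and both lines of pair 10074 lie below them for Col15a1.

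These calls rested on few lines. Leaving out the unstable or the stable line of pair 9515, or both, left 0 of the collagen genes called and 1 or 2 genes in all. Within pair 10074, Col11a1 also missed the threshold without the unstable line (adjusted p = 0.0740), without the stable line (0.0603) and without both (0.0706), and Col15a1 without the unstable line (0.0612) and without both (0.263). Without the stability term only Col2a1 remained called, and Col10a1, Col11a1 and Col15a1 had adjusted p-values of 0.0724, 0.0779 and 0.0604.

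Markers of other cell types also differed between the pairs. Of 12 chondrocyte markers, 7 were below 4 on all arrays and 3 were kept. The lubricin gene Prg4 had pair means of 8.18, 5.21 and 6.69 (adjusted p = 0.00819). The cartilage proteoglycan gene Acan had 6.23, 3.85 and 3.14, but it reached 4 only in pair 9515 and in the stable line of pair 9938, so no test of it is given. Both were highest in pair 9515, while Sox9, a regulator of cartilage genes, was lowest there, with pair means of 7.58, 8.22 and 8.22 (adjusted p = 0.112). The summed chondrocyte level was 8.46 to 9.26 in the unstable and 8.85 to 9.36 in the stable lines, and the highest value of each group was that of pair 9515. Of the 12 macrophage and leukocyte markers, all kept, 8 were called in the pair test, beside 5.93% of all genes. All 12 had their highest pair mean in pair 9938, so these are not separate calls. They summed to 11.96 and 12.07 in pair 9515, 14.30 and 14.24 in pair 9938 and 13.40 and 14.31 in pair 10074 (unstable, then stable). The summed level of the 4 mesothelial markers was 8.84 and 8.10 for pair 9515 and between 6.52 and 7.73 elsewhere. Among them, Krt7 had pair means of 5.18, 3.86 and 4.02. It was below 4 in the stable lines of pairs 9938 and 10074 and passed the filter only with pair 9515, so no test of it is given. Upk3b had pair means of 7.71, 6.35 and 6.01 (adjusted p = 0.202). Wt1 had 5.61, 5.39 and 4.51 (adjusted p = 0.314), and the unstable line of pair 9938 (5.92) was above the stable line of pair 9515 (5.06). The 9 epithelial markers summed to 8.58 and 8.29 in pair 9515 and to 7.68 to 7.92 in the other lines. Epcam, Cdh1 and Krt5 were below 4 on every array. Krt19 had pair means of 7.28, 5.90 and 6.73 (adjusted p = 0.0561). Krt18 had 6.84, 6.86 and 6.23 (adjusted p = 0.229), so it was not highest in pair 9515. Krt8 was highest in pair 9515. It reached 4 only there and in the unstable line of pair 9938, so no test of it is given. The 6 osteoblast markers, none of which was kept, summed to 6.06 and 5.98 in pair 9515 and to 5.60 to 5.88 in the other lines. Mesothelial, epithelial, osteoblast and chondrocyte sums were thus all highest in the pair in which Col10a1, Col11a1 and Col2a1 were highest, although single markers did not all follow. The part of these markers, and of embryo sex, in the collagen differences was not tested.

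The promoter letters of the collagen genes called between pairs are shown so that those called can be set beside 1 that lay level between pairs. The RefSeq tables of GRCm38.p6 held a promoter for 27 of the 36 genes, and Col2a1 was not among them. Col10a1 (chr10:34389731-34389980), Col11a1 (chr3:114030290-114030539), Col15a1 (chr4:47207762-47208011) and Col1a2 (chr6:4505368-4505617) all lie on the plus strand. Each stretch is the 250 bases before the annotated start, and the transcribed bases are not shown. Capitals mark matches on either strand to the TATA box letters TATAAA, the letters CCAAT, the GC box letters GGGCGG and the core of SOX binding sites, AACAAT. No matches overlapped in these sequences.
Col10a1: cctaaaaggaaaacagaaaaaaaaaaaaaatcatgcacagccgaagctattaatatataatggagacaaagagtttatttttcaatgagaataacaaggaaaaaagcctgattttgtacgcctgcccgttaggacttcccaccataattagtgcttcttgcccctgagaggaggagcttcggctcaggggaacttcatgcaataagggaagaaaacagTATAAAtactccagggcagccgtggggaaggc
Col11a1: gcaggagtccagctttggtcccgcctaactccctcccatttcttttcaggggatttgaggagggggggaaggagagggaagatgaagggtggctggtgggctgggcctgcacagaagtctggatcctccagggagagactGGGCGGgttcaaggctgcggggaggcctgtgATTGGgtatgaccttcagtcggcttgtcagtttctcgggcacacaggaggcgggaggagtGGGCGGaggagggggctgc
Col15a1: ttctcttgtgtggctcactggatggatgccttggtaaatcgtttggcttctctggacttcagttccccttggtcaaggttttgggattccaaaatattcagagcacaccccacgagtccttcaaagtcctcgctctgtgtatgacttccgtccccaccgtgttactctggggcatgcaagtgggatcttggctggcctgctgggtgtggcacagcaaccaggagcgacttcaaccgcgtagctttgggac
Col1a2: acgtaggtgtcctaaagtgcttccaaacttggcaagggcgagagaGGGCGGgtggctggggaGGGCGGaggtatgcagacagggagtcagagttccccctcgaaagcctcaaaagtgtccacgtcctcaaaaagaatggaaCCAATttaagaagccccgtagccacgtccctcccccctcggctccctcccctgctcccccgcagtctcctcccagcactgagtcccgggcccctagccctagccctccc
Col10a1 has a TATA box that begins 32 bases before the start. Col11a1 has GC boxes 110 and 19 bases before it and a CCAAT box on the opposite strand 79 bases before it. Col1a2 has GC boxes at 205 and 188 bases and a CCAAT box at 109 bases, and Col15a1 has none of these letters in this window. Over the 250 bases before the start, TATAAA occurred in 12.4% of 32851 promoters and in 5 of the 30 collagen promoters. CCAAT occurred in 33.8% of all and 12 of the 30, GGGCGG in 32.7% and 16, and AACAAT in 9.42% and 1, that of Col3a1. The 3 called genes shown hold no motif in common among those searched, while Col11a1 shares GC box and CCAAT letters with the level gene Col1a2. Whether these letters bear on the levels was not tested.

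Genes that process collagen were read from lists of 73 names, of which 52 were on the array and 47 were kept. None of the 47 passed the unstable against stable test (adjusted p = 0.999 by limma for each gene named here), 25 were higher and 22 lower, and the median difference was 0.019. By role, the genes higher and lower in unstable lines were 6 and 5 of 11 for prolyl hydroxylation and chain folding, 1 and 3 of 4 for lysine hydroxylation and glycosylation, and 2 and 5 of 7 for export from the endoplasmic reticulum. They were 3 and 1 of 4 for propeptide removal, 3 and 2 of 5 for cross-linking, 6 and 4 of 10 for fibril-associated proteins, and 4 and 2 of 6 for receptors and uptake. P4ha2 and P4hb, subunits of prolyl hydroxylase, differed by 0.21 (SE 0.14) and -0.15 (SE 0.11). The lysyl hydroxylase gene Plod2 was higher in the unstable line of each pair, by 0.17, 0.33 and 0.53 (mean 0.34, SE 0.24), and Plod3 differed by -0.17 (SE 0.19).

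Mia3, which loads procollagen into transport vesicles, and the vesicle coat gene Sec23a each differed by 0.16 (SE 0.11 and 0.087). Bmp1, the protease that removes the C-terminal propeptide of fibrillar procollagens, was higher in the unstable line of each pair, by 0.13, 0.52 and 0.53 (mean 0.39, SE 0.30). Pcolce2, an enhancer of that protease, differed by -0.74, -0.56 and 0.075 in pairs 9515, 9938 and 10074 (mean -0.41, SE 0.35). The cross-linking enzyme genes Tgm2 and Loxl1 differed by 0.098 (SE 0.16) and -0.043 (SE 0.16). Of the small proteoglycans that bind fibrils, Prelp was lower in every unstable line than in its pair mate, by 0.21, 0.90 and 1.53 (mean -0.88, SE 0.49), and Dcn differed by 1.39, 0.60 and -0.17 (mean 0.61, SE 0.62). The collagen uptake receptor gene Mrc2 and the integrin subunit gene Itgb1 differed by 0.17 (SE 0.12) and 0.15 (SE 0.14). In the test between pairs 3 of the 47 were called, a share near the 5.93% of all genes, namely Loxl4, a lysyl oxidase family gene (adjusted p = 0.0425), Ogn, a small proteoglycan gene (0.0247, highest in pair 9515), and Lair1, an inhibitory collagen receptor of leukocytes, which was below 4 in pair 9515 and entered the test only through the other pairs.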

How the data were processed

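Transcript levels of 6 MEF lines were measured on Affymetrix arrays, 1 array per line. The deposited values are log2 values, which the authors made with R 2.15.3 and GCRMA 2.28.0, per the submitters' processing notes. GCRMA corrects the background, brings arrays to a common distribution and summarises probe sets, so differences in overall brightness are removed beforehand. The platform annotation gave 1 symbol to 20380 of 22626 probe sets, which were used, several to 691 and none to 1555, which it does not list. Each gene took its probe set with the highest mean.

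The tests covered 8382 genes, those that reached a log2 of 4 on 3 or more arrays. They were made in R 4.3.3 with limma 3.58.1 (eBayes, two-sided, Benjamini-Hochberg over these genes, adjusted p under 0.05). The 3 tests were unstable minus stable without a block, an F-test of the pairs with stability in the model, and the CDC20 minus the BubR1 effect in a model of the 4 genotypes. SEs of unstable minus stable come from the fit without the block. An exact permutation test of 3 lines against 3 cannot reach 0.05. Deviations from the group means correlated within each title number (across genes, 0.812, 0.681 and 0.602 for pairs 9515, 9938 and 10074, against -0.673 to 0.153 for other lines). Deviations from a group mean cancel out within the group, so a positive value within a number lowers the others, and the contrast is partly built in. The numbers, whose meaning the labels do not state, were taken to pair the lines on this basis. The pair test draws on the same spread and is no separate evidence for the pairing. The fits were tested on simulated data.

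Members and lists were chosen with earlier results of these data known. Given line by line were genes past a threshold, the 3 highest means of each class, the 5 highest and 5 lowest differences, genes with the same sign in all pairs and a difference of at least 0.5, and the 5 smallest p of the pair test; of each processing list, the 2 smallest p. Summed marker levels are the log2 of the summed linear values. Promoters are RefSeq's, of GRCm38.p6, while the build behind the array annotation is not given in the sources used here. Figures were drawn with Python 3.11.15 and matplotlib 3.10.9.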

Additional observations from a re-analysis of the deposited data

How the results depend on the processing

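With 1 array per line and 3 lines per group, the number of arrays limits the precision. The unstable minus stable test and the test of the CDC20 minus the BubR1 effect called 0 genes under each alternative that was run, the replicate block included; without either CDC20 line the latter could not be fitted. The block changed no call after adjustment. The pair test called 497 genes, 953 with an intensity trend and robust prior, 249 without the stability term and 1 to 630 when a line or a pair was left out (630 without pair 9938, 1 without either line of pair 9515). Of the collagen genes it called 4, but 7 with the trend and robust prior, 2 (Col11a1 and Col15a1) when a log2 of at least 6 was asked for, which leaves fewer genes tested, 1 without the stability term and 0 to 6 when a line or pair was left out. Where no construction of the alternative shows it, the cause was not tested. The median difference of the cartilage-type genes, 0.38, was 0.12 without the filter, which adds the genes below 4, and -0.024 to 0.90 with a line or pair left out. Signs held in 254 of 281 alternative values of 19 collagen genes. Those that turned were Col1a2 after renewed quantile normalization (0.015) and, when a line or pair was left out, Col1a2 (-0.067 to 0.031), Col2a1 (-1.55 to 1.04), Col3a1 (-0.041 to 0.040), Col4a1 (-0.044 to 0.036), Col4a2 (-0.28 to 0.082), Col4a6 (-0.10 to 0.46), Col6a1 (-0.12 to 0.097), Col6a2 (-0.089 to 0.070), Col10a1 (-0.024 to 0.73), Col14a1 (-0.56 to 0.11) and Col15a1 (-0.96 to 0.22). Of 11 collagen genes with more than 1 probe set of mean at least 4, 9 had the same sign of the difference in them, Col5a2 and Col8a1 did not, and 5 had the same highest pair. With a line or pair left out, the genes whose sign held ranged from -0.19 to -0.050 (Col1a1), 0.077 to 0.26 (Col4a5), -0.75 to -0.17 (Col5a3), -0.31 to -0.084 (Col6a3), 0.31 to 1.06 (Col7a1), 0.031 to 0.90 (Col11a1), 0.031 to 0.54 (Col12a1) and -0.76 to -0.070 (Col18a1).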
